A study of Mus musculus with 18 samples.

Results

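The S100 genes described here are 7 calcium-binding protein genes, S100a4, S100a6, S100a8, S100a9, S100a10, S100a11 and S100a13, taken by symbol out of the 55487 Ensembl gene IDs that were measured. They were followed across 18 RNA-seq libraries of CD4+Foxp3+ regulatory T (Treg) cells sorted from mice, the T cell class that restrains immune responses. The 6 groups were peripheral blood, bone marrow, spleen, lymph node, liver and lung, with 3 libraries each (n = 3 in every mean ± SD below). All mice in all groups were labelled wild-type and untreated, so the labels give no allele or agent to one group that another lacks, and they tell the groups apart by organ. Age, sex, the sorting gates and the source of the replicate libraries were not given in the labels, so p-values measure the spread between these libraries, which may be technical.

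S100 proteins are small EF-hand proteins that change shape on binding calcium and then dock onto partner proteins. S100A8 and S100A9 pair into calprotectin, an abundant cytosolic complex of neutrophils and monocytes that is also released as an inflammatory signal. S100A10 is unusual in that it no longer needs calcium and works in a complex with annexin A2. S100A4, S100A6 and S100A11 bind cytoskeletal or annexin partners and are known to be raised in effector and memory T cells, and S100A13 is known for its part in the release of leaderless cytokines.

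All 7 genes lie on mouse chromosome 3 (GRCm38, GENCODE M21 annotation), in 2 groups. From left to right, the first holds S100a13 (ENSMUSG00000042312, 90514435 to 90524581), S100a4 (ENSMUSG00000001020, 90603771 to 90606045), S100a6 (ENSMUSG00000001025, 90612882 to 90624181), S100a8 (ENSMUSG00000056054, 90668978 to 90670035) and S100a9 (ENSMUSG00000056071, 90692632 to 90695721). S100a9 is on the minus strand and the others are on the plus strand. After a gap of 2824766 bases follow S100a11 (ENSMUSG00000027907, 93520488 to 93526287) and S100a10 (ENSMUSG00000041959, 93555080 to 93564643), both on the plus strand. RefSeq promoter entries (build GRCm38.p6) were found for 6 of the 7 members, and the 250 bases before each start were searched on both strands for a TATA box (TATAAA), an AP-1 element (TGANTCA), a C/EBP element (TTGCNNAA) and a GC box (GGGCGG). The stretches shown are those of the 4 members with a match to at least 1 of these motifs, with matches in capitals, 5′ to 3′.
S100a8, chr3:90669031-90669060, + strand: agctttcctcTATAAAagcagctgacactt
S100a9, chr3:90695722-90695971, - strand: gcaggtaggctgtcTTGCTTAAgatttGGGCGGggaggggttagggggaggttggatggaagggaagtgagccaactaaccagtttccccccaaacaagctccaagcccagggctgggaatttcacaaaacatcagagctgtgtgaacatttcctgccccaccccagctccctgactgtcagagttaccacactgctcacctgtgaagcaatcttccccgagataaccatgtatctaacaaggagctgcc
S100a4, chr3:90603520-90603769, + strand: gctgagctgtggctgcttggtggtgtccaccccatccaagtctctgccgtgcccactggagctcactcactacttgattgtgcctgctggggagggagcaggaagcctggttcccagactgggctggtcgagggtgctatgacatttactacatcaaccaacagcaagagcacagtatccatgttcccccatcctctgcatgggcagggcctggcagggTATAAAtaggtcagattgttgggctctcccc
S100a11, chr3:93520246-93520487, + strand: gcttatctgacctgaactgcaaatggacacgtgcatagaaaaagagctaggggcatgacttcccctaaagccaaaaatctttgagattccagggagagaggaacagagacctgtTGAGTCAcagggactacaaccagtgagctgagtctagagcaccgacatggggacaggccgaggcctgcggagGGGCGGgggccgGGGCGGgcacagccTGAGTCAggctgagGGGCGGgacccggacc
The S100a8 stretch is limited to 30 bases around its match because its RefSeq start lies 93 bases inside the first exon of the GENCODE gene, and the S100a11 stretch ends before the first GENCODE base. The letters TATAAA stand 30 bases before the S100a8 start and 31 bases before the S100a4 start, and 12.4% of 32851 RefSeq promoter windows of the same length hold them. S100a9 holds 1 C/EBP match, letters found in 9.56% of windows, and 1 GC box match, letters found in 32.7%. S100a11 holds the AP-1 letters at 2 places, against 6.75% of windows with a match, and the GC box letters at 3 places, against 32.7%. The windows of S100a6 and S100a13 hold no match to the 4 motifs. A match describes letters in these windows and nothing about binding in these cells.

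The libraries carried the markers of their label and markers of other cells. Foxp3 averaged 88.6 TPM (a length-normalized share of the library) in blood and up to 238.5 TPM in lymph node, and all 6 Treg markers were above 1 TPM in every organ. Markers of neutrophils, granulocyte precursors and monocytes or macrophages, 24 genes fixed as a list, summed to 103.6 to 119.5 TPM in lymph node, 318.1 to 354.7 in liver, 395.9 to 445.1 in spleen, 1423.6 to 1467.2 in lung, 11810.3 to 12113.4 in blood and 18891.4 to 19115.0 in bone marrow. The sum of 6 platelet markers averaged 2754.6 TPM in blood against at most 76.1 in the other organs, the sum of 5 erythroid markers was highest in liver (7348.3 TPM) and the sum of 4 lung epithelial markers in lung (248.8). By the steps between low values, 1 read per kb amounted to 0.378 TPM in liver, 0.233 in lung, 0.157 in spleen, 0.116 in bone marrow, 0.0876 in lymph node and 0.0826 in blood, so low values were least precise in liver. In such bulk libraries, fewer cells of a type and less RNA per cell cannot be told apart.

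S100a8 and S100a9, the calprotectin pair, were the most abundant members in bone marrow and blood and were lowest in lymph node. S100a9 stood at 20689, 20691 and 20725 TPM in the 3 bone marrow libraries and at 9247, 8697 and 9201 TPM in blood. The lung libraries held 328, 298 and 342 TPM, the spleen libraries 319.7, 229.8 and 292.4, the liver libraries 53.0, 56.6 and 135.5, and the lymph node libraries 6.71, 19.6 and 33.1. Bone marrow and blood did not overlap each other or any other organ, lung and spleen overlapped, and 1 liver library lay apart from the other 2. S100a8 stood at 12957, 12688 and 12951 TPM in bone marrow, at 7545, 6867 and 7141 in blood, at 187.4, 202.8 and 230.8 in lung, and at 187.1, 145.9 and 158.6 in spleen. Its liver values were 48.9, 46.1 and 139.3 TPM and its lymph node values 8.07, 12.1 and 21.4, so the same liver library (replicate 3) was high for the whole pair. The lymph node values rest on an estimated 24 to 55 reads for S100a8 and 22 to 93 for S100a9, and the liver values on 29 to 100 and 39 to 106.

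Blood exceeded 4 of the 5 organs for this pair by large margins. S100a8 was 43.8 times its spleen mean, 518.9 times its lymph node mean, 92.0 times its liver mean and 34.7 times its lung mean, with log2 differences of 5.45, 9.02, 6.70 and 5.11 (SE 0.34 each, limma on log2(TPM + 1), largest adjusted p = 4.7e-09). For S100a9 the log2 differences were 5.02, 9.01, 6.91 and 4.81 (SE 0.40, limma, largest adjusted p = 7.74e-08). Without liver replicate 3, the blood excess over liver grew to a log2 difference of 7.21 for S100a8 and 7.34 for S100a9. Without lymph node replicate 1, the S100a9 difference from lymph node was 8.41, which is a fold smaller by more than 1.5 times. Bone marrow was above blood in TPM for the pair, 1.79-fold for S100a8 (log2 difference of blood minus bone marrow -0.84, SE 0.34, limma adjusted p = 0.0716) and 2.29-fold for S100a9 (-1.19, SE 0.40, adjusted p = 0.0329). The S100a9 call was lost when any 1 of the 6 blood or bone marrow libraries was left out, with limma adjusted p between 0.0737 and 0.0826. The S100a8 difference passed without lymph node replicate 3 (limma adjusted p = 0.0446) and without liver replicate 3 (0.00787). The SE comes from a spread shared by all 6 organs, and in a fit to the blood and bone marrow libraries alone both genes passed, with limma adjusted p of 1.73e-06 and 1.29e-07.

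Across the 4 remaining organs, lung and spleen were not told apart for S100a8 (log2 difference 0.34, SE 0.34, limma adjusted p = 0.467) or S100a9 (0.21, SE 0.40, adjusted p = 0.732). Spleen exceeded liver for S100a8 by 2.10-fold (limma adjusted p = 0.0104) and for S100a9 by 3.43-fold (0.00205), and liver exceeded lymph node by 5.64-fold and 4.13-fold. Leaving out liver replicate 2 moved the S100a8 difference between spleen and liver to an adjusted p of 0.0508 in limma. With library weights, the calls of spleen against liver (limma adjusted p = 0.185 for S100a8 and 0.222 for S100a9), of lung against liver (0.144 and 0.247) and, for S100a9, of liver against lymph node (0.107) were lost. By mean TPM the order was bone marrow, blood, lung, spleen, liver and lymph node for both genes, with lung and spleen not told apart for either gene and bone marrow and blood not told apart for S100a8. The pair took 3.36% ± 0.0164 of all TPM in bone marrow and 1.62% ± 0.0621 in blood, against 0.00336% ± 0.00199 in lymph node, 0.0160% ± 0.00996 in liver, 0.0444% ± 0.00657 in spleen and 0.0529% ± 0.00379 in lung.

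The balance within the pair also differed by organ. The S100a8 to S100a9 ratio, per length, was 0.794 ± 0.0203 in blood (0.776 to 0.816) and 0.621 ± 0.00716 in bone marrow (0.613 to 0.626), so the blood libraries all lay above the bone marrow libraries. It was 0.587 ± 0.0464 in spleen, 0.643 ± 0.0621 in lung and 0.921 ± 0.107 in liver. In lymph node it spread from 0.616 to 1.2, at the low read numbers given above. These ratios are values without a test.

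By mean TPM, the neutrophil marker sum had the same order of organs as the pair, and the part of myeloid cells in it was not tested. Within liver the order differed. Replicate 3, high for the pair, had a neutrophil sum of 91.0 TPM, against 133.7 in replicate 1 and 79.4 in replicate 2. Lung and spleen, not told apart for the pair, averaged 1447.7 and 423.7 TPM for the 24 myeloid markers. The 10 neutrophil markers summed to 15 TPM in lymph node, 101.4 in liver, 163.2 in spleen, 168.8 in lung, 2516.8 in blood and 13995.4 in bone marrow. They split between blood and bone marrow, with 6 lower in blood (18.8% of all genes) and 2 higher (13%). Ngp held 5348, 5271 and 5272 TPM in bone marrow and 60.8, 67.4 and 63.1 in blood. Csf3r, higher in blood like Cxcr2, held 147.5, 143.2 and 145.4 TPM in bone marrow and 698.2, 771.1 and 720.9 in blood. Ratios to this sum thus compare unlike mixes of markers. The 10 monocyte and macrophage markers had another order. They summed to 94.9 TPM in lymph node, 229.2 in liver, 254.5 in spleen, 1268.2 in lung, 3745.3 in bone marrow and 9388.4 in blood. The largest gene in this sum was Lyz2 in bone marrow, blood, lung and spleen and Ccr2 in liver and lymph node. Lyz2 held 2777, 2887 and 2764 TPM in bone marrow, 7388, 7591 and 7428 in blood and 916, 930 and 870 in lung. Ccr2 held 116, 155 and 120 TPM in liver and 43, 45 and 43 in lymph node. The order of this sum and ratios to it thus rest largely on these genes, and which cells they came from was not tested. At a mean of 1 TPM or more were 10 of 10 neutrophil markers in bone marrow, blood and spleen, 9 in lung, 8 in liver and 6 in lymph node, and 10 of 10 monocyte and macrophage markers everywhere except lymph node, with 6. The 4 granulocyte precursor markers summed to 1298.4 TPM in bone marrow and to at most 15.7 TPM elsewhere. The sum of S100a8 and S100a9 was 2.40 ± 0.0231 times the neutrophil sum in bone marrow, 2.73 ± 0.101 in spleen, 2.42 ± 0.522 in lymph node, 3.30 ± 0.818 in lung and 1.69 ± 1.18 in liver, and 6.46 ± 0.398 in blood. Relative to the monocyte and macrophage sum it was 8.96 ± 0.177 in bone marrow, 1.75 ± 0.264 in spleen, 1.73 ± 0.0840 in blood, 0.359 ± 0.219 in lymph node, 0.419 ± 0.0489 in lung and 0.690 ± 0.409 in liver. The neutrophil gene Cebpe and the precursor gene Ctsg were at 0 in all 3 liver libraries, and Ctsg was at 0 in all 3 spleen libraries.

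**Figure D1:**
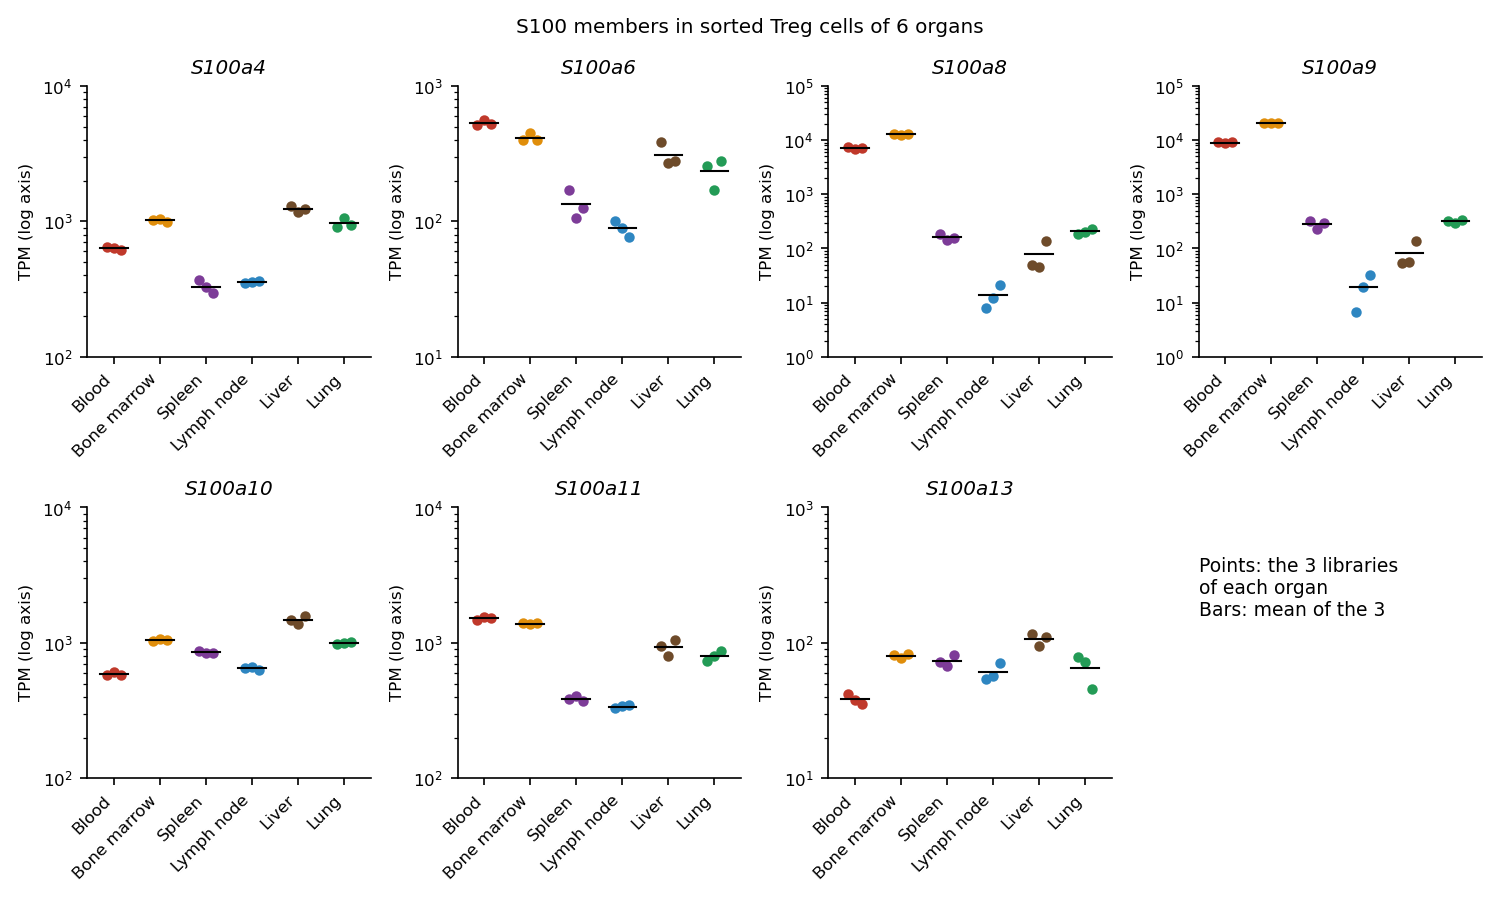
TPM (log axis) of the 7 S100 genes in each library, by organ, with points for the 3 libraries and bars for their mean. S100a8 and S100a9 span the widest range, from 6.71 TPM in a lymph node library to 20725 TPM in a bone marrow library, while S100a10 and S100a13 differ by no more than 2.78-fold between organ means.

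S100a4, a binder of non-muscle myosin that is associated with cell motility, was highest in liver and lowest in spleen and lymph node. It stood at 1310, 1181 and 1243 TPM in liver, at 1022, 1041 and 992 in bone marrow, and at 914, 1052 and 943 in lung. Blood lay between, at 648.8, 640.7 and 618.7 TPM, above lymph node at 349.9, 357.8 and 360.5 and spleen at 367.4, 325.1 and 297.3. Liver, bone marrow with lung, blood, and lymph node with spleen formed 4 levels whose libraries did not overlap. The mean of liver and lung exceeded that of spleen and lymph node by a log2 difference of 1.68 (SE 0.05, limma adjusted p = 1.47e-13), which is 3.23-fold in TPM. Blood was 1.93-fold above spleen and 1.79-fold above lymph node, and lower than bone marrow, liver and lung, at 0.625, 0.511 and 0.656 of their means (log2 differences -0.68, -0.97 and -0.61, SE 0.07, limma, largest adjusted p = 1.72e-06). Liver was 3.77-fold above spleen for S100a4. The 24 myeloid markers summed to less in each liver library than in each spleen library, and their part in the S100a4 levels was not tested.

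S100a6, which binds annexins and the adaptor Cacybp, was highest in blood and lowest in lymph node. Blood held 513.9, 562.4 and 527.0 TPM and bone marrow 401.0, 446.6 and 396.1. Liver held 382.8, 270.5 and 280.4 TPM, lung 256.4, 169.3 and 279.0, spleen 170.1, 106.6 and 125.7, and lymph node 101.0, 88.9 and 76.6. The blood libraries lay above all others, while lung overlapped liver and its lowest library fell below the highest spleen library. Blood exceeded spleen 3.98-fold, lymph node 6.02-fold, liver 1.72-fold and lung 2.28-fold (log2 differences 2.01, 2.58, 0.80 and 1.21, SE 0.19, limma, largest adjusted p = 0.00311). Against bone marrow the difference was 0.37 (SE 0.19, limma adjusted p = 0.166), and in order of level only lung and spleen were told apart among neighbouring organs. The bone marrow difference passed in a fit to the blood and bone marrow libraries alone (limma adjusted p = 0.00132) and with library weights (0.0159). Some of these results turned on single libraries or on the processing. Spleen and lymph node passed without spleen replicate 2 (limma adjusted p = 0.0303), liver replicate 1 (0.0381), lung replicate 2 (0.0236) or lung replicate 3 (0.0462). With all libraries kept, they passed with a filter at 5 TPM (limma adjusted p = 0.0444), scaling to T cell genes (0.0111) and abundant RNA classes removed (0.0355). They also passed with quantile normalization (limma adjusted p = 0.022), library weights (0.0096) and a replicate block (0.0411). They did not pass with the pseudocount changed, without a filter or with plain moderation. Bone marrow and liver passed without liver replicate 1 (limma adjusted p = 0.0315) or lung replicate 2 (0.0465), and liver against lung passed without lung replicate 3 (0.0476). Bone marrow and liver also passed with scaling to T cell genes (limma adjusted p = 0.000716). Liver and lung together exceeded spleen and lymph node by a log2 difference of 1.29 (SE 0.13, limma adjusted p = 1.1e-06).

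S100a11, a partner of annexin A1, followed much of the same course at a higher level. It stood at 1488, 1559 and 1529 TPM in blood, at 1393, 1372 and 1408 in bone marrow, at 953, 807 and 1050 in liver, and at 730, 803 and 867 in lung. Spleen held 386.9, 407.0 and 370.7 TPM and lymph node 328.4, 339.5 and 347.2. All libraries of blood and bone marrow lay above liver and lung, and those above spleen and lymph node. Blood exceeded spleen 3.93-fold, lymph node 4.51-fold, liver 1.63-fold and lung 1.91-fold (log2 differences 1.97, 2.17, 0.71 and 0.93, SE 0.08, limma, largest adjusted p = 1.58e-06), and its difference from bone marrow was 0.13 (adjusted p = 0.219). The bone marrow difference passed in a fit to the blood and bone marrow libraries alone (limma adjusted p = 0.00512), with library weights (0.00575) and with quantile normalization (0.0182). Liver exceeded lung by 1.17-fold with overlapping libraries (limma adjusted p = 0.0333), a call that was lost without liver replicate 1 (0.0803), liver replicate 3 (0.156), lung replicate 1 (0.144) or lung replicate 2 (0.0637), and with library weights (0.127). Spleen and lymph node were not told apart (limma adjusted p = 0.107) but passed without liver replicate 2 (0.0264). With all libraries kept, they passed with scaling to T cell genes (limma adjusted p = 0.000316), abundant RNA classes removed (0.0199) and library weights (0.00455). They did not pass under the other alternatives tried for this pair of organs. A processed copy, S100a11-ps on chromosome 12, was above 0 in 2 of 18 libraries, both from lung, at 28.9 and 18.6 TPM, so lung reads of S100a11 may have been split between the copies.

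S100a10, the light chain of the annexin A2 complex, was at 576.8 TPM or more in every library and highest in liver. It stood at 1485, 1391 and 1574 TPM in liver, 1028, 1073 and 1047 in bone marrow, 977, 1003 and 1018 in lung, 876, 838 and 839 in spleen, 657, 667 and 633 in lymph node and 578, 613 and 577 in blood. Blood was thus lowest for S100a10, the reverse of its place for S100a11, which lies 28792 bases away. The log2 differences of blood from liver, bone marrow, lung, spleen and lymph node were -1.33, -0.83, -0.76, -0.53 and -0.15 (SE 0.04, limma, adjusted p = 0.0134 for lymph node and at most 7.24e-08 for the others). Of the neighbours in this order, bone marrow and lung were not told apart (limma adjusted p = 0.206), and lung exceeded spleen by 0.23 (0.000431) but lay 0.08 below it after quantile normalization (adjusted p = 0.243). The lymph node call was lost without lymph node replicate 2 (limma adjusted p = 0.0587), blood replicate 1 (0.0518) or blood replicate 3 (0.0555). Liver and lung exceeded spleen and lymph node by 0.71 (SE 0.03, limma adjusted p = 3.06e-11) with no overlap. The S100a11 to S100a10 ratio per length was 0.456 ± 0.0252 in spleen, 0.519 ± 0.0256 in lymph node, 0.630 ± 0.0445 in liver, 0.799 ± 0.0526 in lung, 1.33 ± 0.0415 in bone marrow and 2.59 ± 0.0560 in blood.

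S100a13 was the least abundant of the 7 by mean TPM in blood, bone marrow, spleen and lung, and 8 of its 15 organ pairs passed the test, the fewest of the 7 genes. Liver held 115.6, 94.7 and 110.0 TPM, bone marrow 81.1, 77.1 and 82.8, spleen 72.5, 67.8 and 80.9, lung 79.2, 72.6 and 45.4, and lymph node 54.2, 57.0 and 70.9. Blood was lowest, at 41.7, 37.9 and 35.5 TPM, below every library of every other organ. The log2 differences of blood from liver, bone marrow, spleen, lung and lymph node were -1.45, -1.05, -0.92, -0.72 and -0.64 (SE 0.16, limma, largest adjusted p = 0.00572). Lung replicate 3 rests on an estimated 92 reads and without it bone marrow and lymph node (limma adjusted p = 0.0127), lymph node and lung (0.0457) and bone marrow and liver (0.00999) were told apart. Without lung replicate 1, bone marrow passed against liver (limma adjusted p = 0.0490) and lung (0.0341). Spleen was below liver (limma adjusted p = 0.0235), a call that was lost without spleen replicate 1 (0.0603), spleen replicate 2 (0.0818), liver replicate 1 (0.0687) or liver replicate 3 (0.0568), and with library weights (0.163). Liver and lung exceeded spleen and lymph node by 0.31 (SE 0.12, limma adjusted p = 0.0434) with overlapping libraries, and that call did not survive 14 of the 18 fits that left out 1 library, where the largest limma adjusted p was 0.114.

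**Figure D2:**
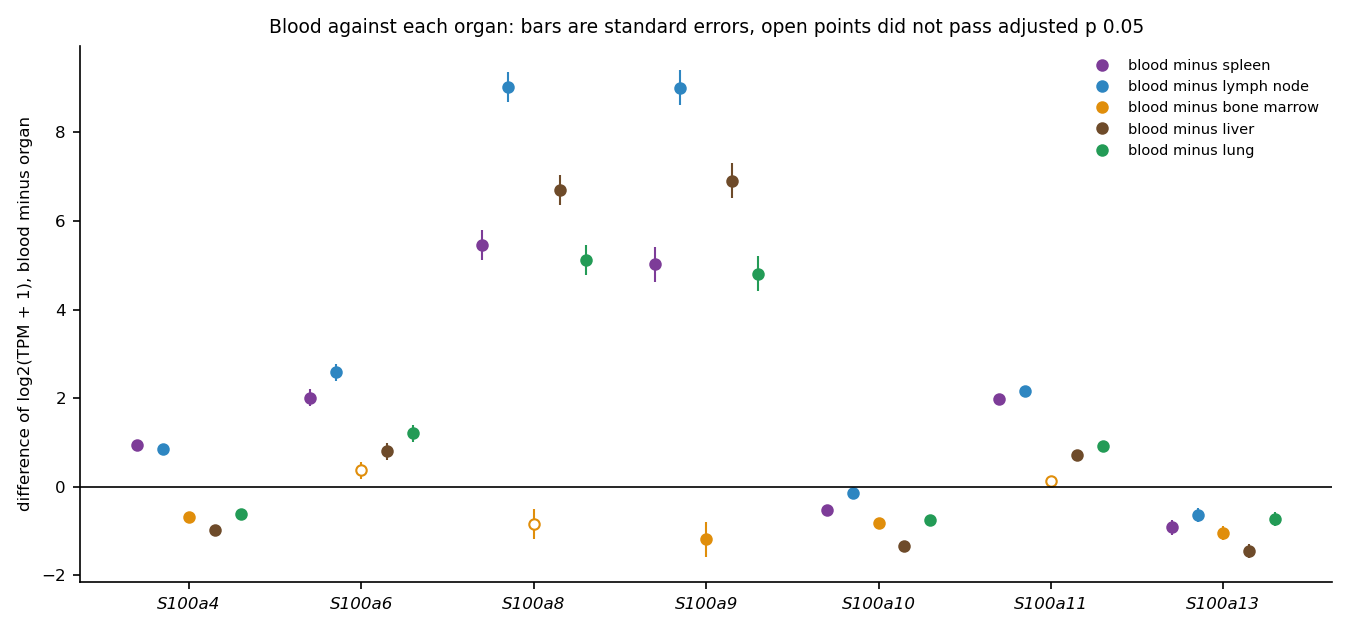
Difference of log2(TPM + 1), blood minus each of the 5 organs, for the 7 genes, with standard errors as bars and open points for differences that did not pass an adjusted p of 0.05. S100a8 and S100a9 reach 9.02 and 9.01 against lymph node, and S100a10 and S100a13 lie below 0 against all 5 organs.

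Counted over the family, all 7 members differed between blood and spleen, where 35.4% of all 16694 tested genes passed. Of the 7, 5 were higher in blood (20.1% of all genes) and 2 lower (15.3%). The same held against lymph node (37.4% of all genes passed), with S100a4, S100a6, S100a8, S100a9 and S100a11 higher in blood (16.4%) and S100a10 and S100a13 lower (21%). Against liver (39.4% of all genes) all 7 differed, with S100a6, S100a8, S100a9 and S100a11 higher in blood (23.3%) and S100a4, S100a10 and S100a13 lower (16.1%). Against lung (43.7%) the same 4 were higher (26.4%) and the same 3 lower (17.3%). Against bone marrow (31.8%) 4 of 7 passed, S100a4, S100a9, S100a10 and S100a13, all lower in blood (18.8% of all genes, and 13% higher). In liver and lung against spleen and lymph node (45.6%) all 7 were higher, where 16.3% of all genes were higher and 29.3% lower. Among the other pairs of organs used for the orders above, the share of all genes that passed was 14.3% for spleen and lymph node, 24.1% for spleen and bone marrow, 31.3% for spleen and liver, 40.8% for spleen and lung, 22.5% for lymph node and bone marrow, 31.1% for lymph node and liver, 42.3% for lymph node and lung, 34.5% for bone marrow and liver, 43.5% for bone marrow and lung and 34.9% for liver and lung. The median member log2 difference was 1.97 for blood against spleen, 2.17 against lymph node, -0.83 against bone marrow, 0.71 against liver, 0.93 against lung and 1.25 for liver and lung against spleen and lymph node, beside medians of 0.00, -0.15, -0.11, 0.07, 0.12 and -0.15 over all genes. For S100a8 and S100a9 the last comparison joins unlike organs, since spleen lay above liver. The F test over the 6 organs passed for 7 of 7, where 68% of all genes passed. The 5 comparisons with blood share the blood libraries.

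The level of T cell genes also differed between organs, and the direction of some members depended on it. The T cell gene level, the geometric mean of 15 T cell genes such as Cd3e and Lck, was 322.1 TPM in lymph node, 275.0 in liver, 265.0 in spleen, 208.5 in lung, 189.2 in bone marrow and 148.0 in blood. Scaling each library to this level raised the median log2 difference over all genes to 0.68 for blood against spleen, 0.73 against lymph node, 0.17 against bone marrow, 0.82 against liver and 0.54 against lung. On that scale S100a10 in blood turned from below to above spleen (log2 difference 0.31, limma adjusted p = 1.13e-05) and lymph node (0.97, 1.6e-11). S100a13 in blood turned to above lymph node (0.46, limma adjusted p = 0.0273), and its differences from spleen (-0.10) and lung (-0.24) no longer passed. Relative to the shift of all genes, S100a10 was still below the median gene against spleen and was above it against lymph node. S100a8, S100a9, S100a6 and S100a11 kept their direction against spleen, lymph node, liver and lung.

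Per T cell gene level, S100a4 was higher in bone marrow, lung, liver and blood than in spleen and lymph node. The ratio was 5.38 ± 0.112 in bone marrow, 4.65 ± 0.229 in lung, 4.53 ± 0.298 in liver and 4.30 ± 0.130 in blood, against 1.25 ± 0.131 in spleen and 1.11 ± 0.0185 in lymph node. The blood difference of S100a4 from liver (log2 -0.07, limma adjusted p = 0.326) and lung (-0.11, 0.155) did not pass on this scale. Scaled in this way, S100a4 in bone marrow passed as higher than in liver (log2 difference 0.25, limma adjusted p = 0.00387), the reverse of the unscaled TPM. S100a11 ranged from 10.3 ± 0.205 in blood to 1.05 ± 0.0287 in lymph node, and S100a6 from 3.61 ± 0.163 to 0.276 ± 0.0383 in the same organs. On this scale, S100a6 (log2 difference 0.72, limma adjusted p = 0.00974) and S100a11 (0.49, 5.89e-05) passed as higher in blood than in bone marrow, and S100a9 (-0.84, 0.115) did not pass. Liver minus lung no longer passed for S100a4 (log2 difference -0.04, limma adjusted p = 0.701) or S100a11 (-0.18, 0.0642). S100a10 was 5.55 ± 0.0554 in bone marrow, 5.39 ± 0.276 in liver, 4.80 ± 0.117 in lung, 3.98 ± 0.141 in blood, 3.21 ± 0.0909 in spleen and 2.03 ± 0.0669 in lymph node.

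**Figure D3:**
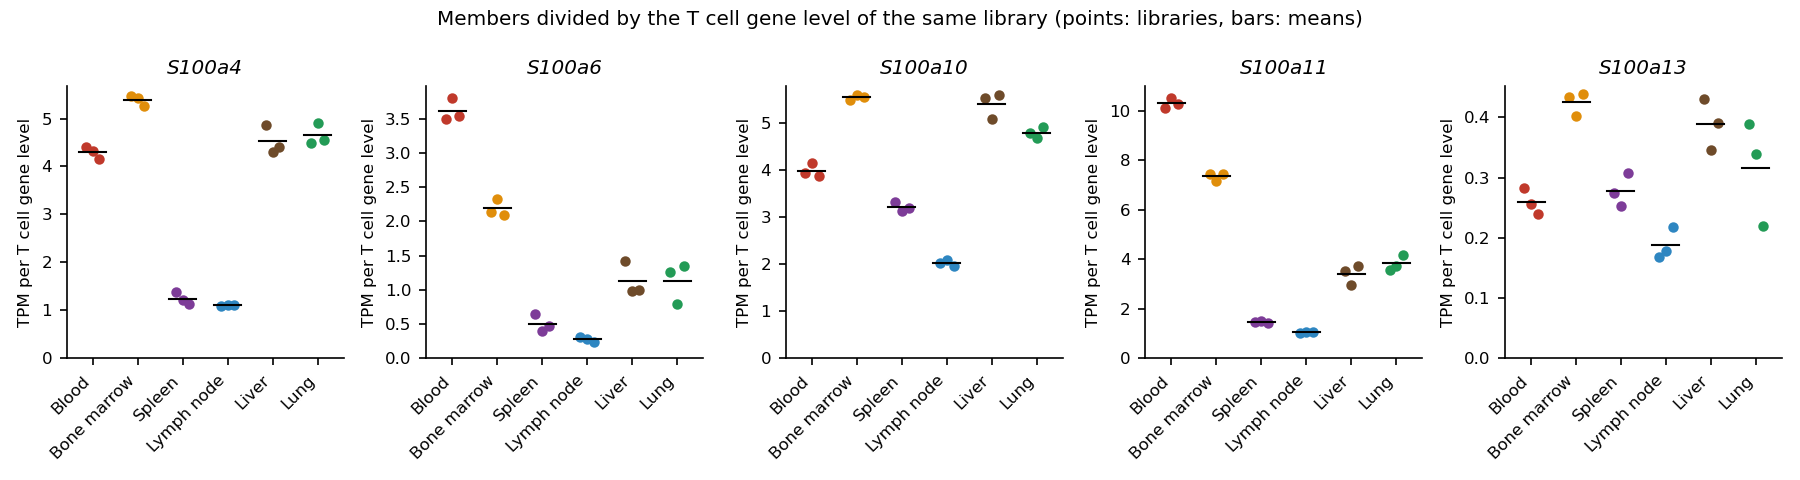
TPM of 5 S100 genes divided by the T cell gene level of the same library (linear axes from 0; points are libraries, bars are means of 3), by organ. S100a4 lies between 4.16 and 5.46 in blood, bone marrow, liver and lung and at most at 1.39 in spleen and lymph node.

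The members did not share 1 order over the organs. Across the 18 libraries, which share organ and depth within a group, the Pearson correlation of log2(TPM + 1) was 1.00 between S100a8 and S100a9, 0.96 between S100a6 and S100a11, 0.83 between S100a8 and S100a11 and 0.80 between S100a8 and S100a6. S100a10 and S100a13 correlated with each other at 0.83 and with S100a8 at -0.11 and -0.29. S100a4 correlated at 0.75 with S100a11, 0.71 with S100a10 and 0.36 with S100a8. The 5 members other than the calprotectin pair summed to 4083.3 TPM in liver, 3953.7 in bone marrow, 3323.7 in blood, 3069.7 in lung, 1776.8 in spleen and 1496.3 in lymph node. The pair made up 89.5% of the 7-member sum in bone marrow and 83.0% in blood, but 20.0% in spleen, 14.7% in lung, 3.69% in liver and 2.19% in lymph node. How much of the S100a6 and S100a11 RNA in bone marrow and blood lay in T cells was not tested.

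**Figure D4:**
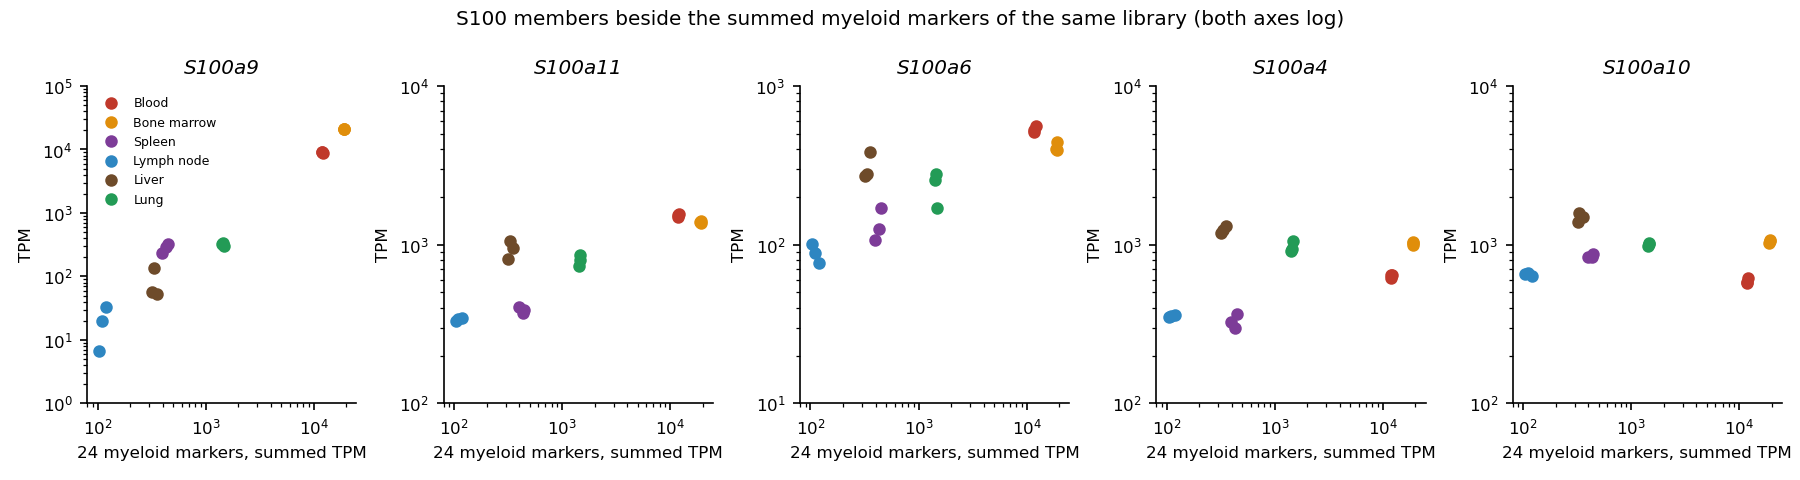
TPM of S100a9, S100a11, S100a6, S100a4 and S100a10 (vertical, log axis) against the summed TPM of 24 myeloid markers (horizontal, log axis), 1 point per library, coloured by organ. By organ mean, S100a9 climbs with the marker sum from lymph node to bone marrow. S100a4 and S100a10 are higher in liver, with 318.1 to 354.7 TPM of markers, than in blood, with 11810.3 to 12113.4 TPM.

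The other S100 genes were mostly silent around the active members. Of 9 listed, 3 reached a mean of 1 TPM in some organ and were tested, S100a1, S100a3 and S100a16, and of these only S100a1 passed, in each of the 6 comparisons. S100a2, which the list leaves out, averaged 1.45 TPM in spleen and at most 0.867 TPM in the other organs. S100a1, known from heart muscle, begins 42 bases from S100a13 and is read in the opposite direction. It averaged 79.0 ± 1.49 TPM in blood, 16.6 in lung, 13.2 in bone marrow, 3.75 in liver, 1.83 in lymph node and 1.67 in spleen, so S100a1 was highest where S100a13 was lowest in TPM. Per T cell gene level, S100a13 was lowest in lymph node (0.188 ± 0.0268), with blood next at 0.259 ± 0.0225. Blood exceeded bone marrow by a log2 difference of 2.50 for S100a1 (SE 0.60, limma adjusted p = 0.00416), with larger differences against spleen, lymph node and liver, and 2.24 against lung. S100a5, which sits between S100a4 and S100a6 with 2477 and 1101 bases to either side, was above 0 in 1 of 18 libraries, at 1.18 TPM. The predicted gene Gm42674, which overlaps S100a4, was at 0 in all 18 libraries.

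**Figure D5:**
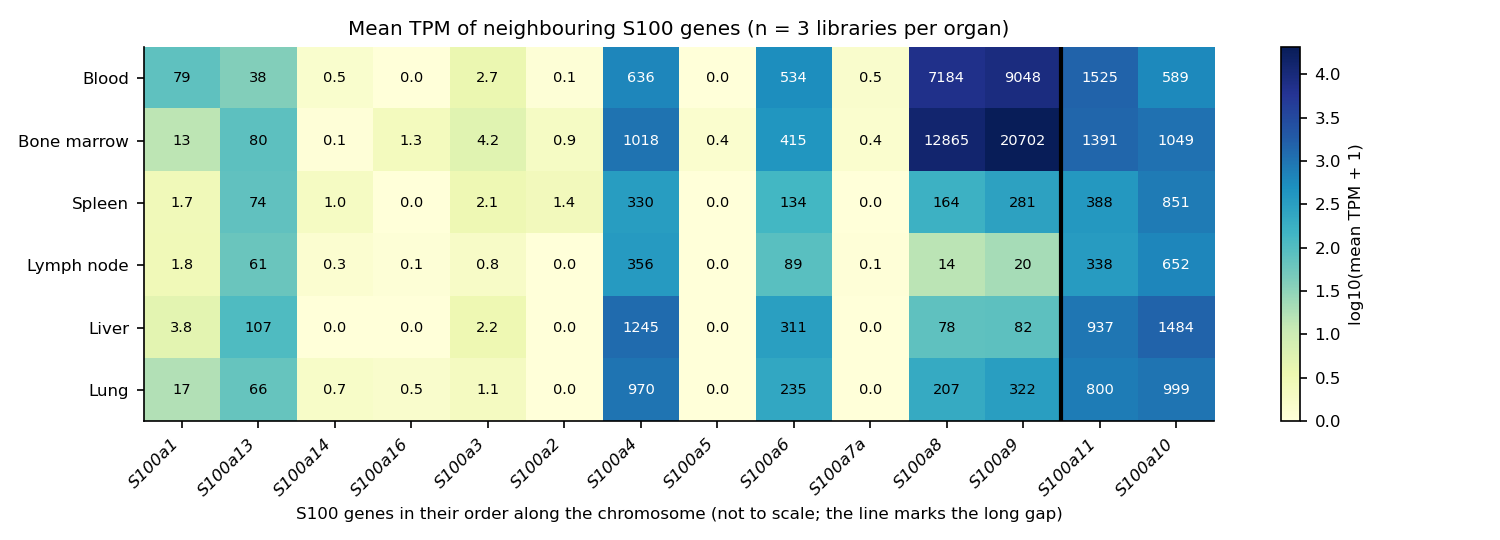
Mean TPM (numbers in the cells; colour gives log10(mean TPM + 1)) of the S100 genes in their order along chromosome 3, by organ. S100a14, S100a16, S100a3, S100a2, S100a5 and S100a7a stay at or below 4.24 TPM in every organ mean beside members that reach 20702 TPM.

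Known partners and receptors of S100 proteins, 14 genes listed of which 13 were tested (Fgf1 did not average 1 TPM in any organ and reached 0.81 TPM in its highest library), split by gene. In blood, 7 were higher and 1 lower than in spleen, 6 and 2 against lymph node, 4 and 4 against bone marrow, 8 and 3 against liver, and 8 and 1 against lung, beside the shares of all genes given above. In liver and lung, 6 were higher and 5 lower than in spleen and lymph node. Anxa2, the partner of S100a10, ran at 65.3 ± 1.14 TPM in lymph node, 75.1 ± 1.66 in spleen, 153.9 ± 28.3 in liver, 195.8 ± 8.65 in lung, 267.6 ± 9.10 in bone marrow and 477.3 ± 18 in blood. Anxa2 was thus highest where S100a10 was lowest in TPM, with a log2 difference of blood from spleen of 2.65 (SE 0.09, limma adjusted p = 4.33e-12). Ahnak, a giant scaffold bound by the same complex, was highest in liver at 213.6 ± 9.44 TPM, like S100a10, and averaged 57.1 in spleen, 98.9 in lymph node, 101.7 in lung, 149.5 in bone marrow and 154.9 in blood.

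Anxa1, which pairs with S100a11, reached 555.8 ± 18.5 TPM in bone marrow and 276.2 ± 13.6 in blood, against 42.6 in lung, 20.2 in liver, 10.5 in spleen and 4.50 in lymph node. Anxa6 was lower in blood than in spleen, lymph node, bone marrow and liver, with a mean of 227.8 TPM in blood and 382.2 in bone marrow. Anxa5 averaged 133.7 TPM in blood and 77.5 to 116.9 elsewhere, and Anxa11 was highest in bone marrow at 116.8 TPM. Myh9, the myosin heavy chain bound by S100a4, was highest in lymph node at 652.6 ± 4.42 TPM, where S100a4 was near its lowest, and ranged from 405.9 to 472.4 TPM elsewhere. The partner levels here and above are TPM, not divided by the T cell gene level. That level was highest in lymph node (322.1 TPM) and lowest in blood (148.0), so the order of organs may differ on that scale. Cacybp, the S100a6 adaptor, lay between 42.5 and 74.9 TPM.

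Receptors of released calprotectin were low to moderate. Tlr4, a receptor of S100A8 and S100A9, averaged 15.3 ± 1.01 TPM in blood and 0.733 to 3.88 TPM elsewhere, and blood was higher than each of the 5 organs (log2 difference of at least 1.74, limma, largest adjusted p = 7.57e-06). Ager, which encodes the receptor RAGE, fell to 2.24 ± 0.626 TPM in lung, against 9.20 to 17.4 TPM in the other organs (blood minus lung 2.52, SE 0.19, limma adjusted p = 2.88e-08). Cd36, a fatty acid receptor that binds the pair, averaged 30.5 ± 2.42 TPM in blood and 15.7 in lung, and Bsg, which encodes basigin, ranged from 128.0 to 189.1 TPM. Il1a, a leaderless cytokine, reached 14.5 ± 3.43 TPM in lung and at most 1.61 TPM elsewhere. Tlr4 and Cd36 were highest in blood, as was the sum of the 10 monocyte and macrophage markers (9323.4 to 9507.0 TPM), and the part of those cells was not tested.

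The genes most like each member over the 18 libraries, ranked by Pearson correlation of log2(TPM + 1) among 9452 genes of at least 10 TPM in some organ, differed between members. Closest to S100a8 were S100a9 (0.997), Retnlg (0.989), itself one of the neutrophil markers, and Chil1 (0.977), and S100a9 had the same 3 with S100a8 in its own place. Retnlg averaged 1398.0 TPM in bone marrow, 769.0 in blood and 1.35 in lymph node. Close to S100a4 were Junb (0.969) and Klf6 (0.963), both immediate early transcription factor genes, and Junb ran from 263.0 TPM in lymph node to 2489.6 in liver. S100a6 was close to S100a11 (0.959) and the transcription factor gene Klf4 (0.944), and S100a11 to the linker histone gene Hist1h1c (0.969) and Klf4 (0.966). Klf4 averaged 52.4 TPM in blood and 0.673 in lymph node. S100a10 was closest to the heat shock gene Hspa1b (0.986), whose value is uncertain because Hspa1a is a near-identical copy, to Dcun1d4 (0.967) and to the co-chaperone gene Dnajc8 (0.963). Hspa1b ran from 8.81 TPM in blood to 2470.3 in liver, a far wider range than that of S100a10 itself. S100a13 was closest to Acot7 (0.944), Idh3a (0.913), a subunit of a mitochondrial dehydrogenase, and the clone-named gene CT010467.1 (0.905). With 6 organs behind the 18 libraries, such correlations describe the order of the organ means.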

How the data were processed

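Poly(A) RNA of sorted mouse Treg cells from 6 organs was made into libraries with a strand-specific kit, per the labels' protocols. The authors deposited TPM values, to 2 decimals, for 55487 Ensembl gene IDs per library; whether strand was used in counting is not given in the sources used here. The submitters' processing notes name STAR, RSEM and mm10, without versions or roles. As shares of a library, TPM values fall when other RNA enters it. Symbols were found for 55141 IDs. Gene coordinates, types and transcript lengths are from GENCODE M21, and promoter sequences are from RefSeq (GRCm38.p6).

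Genes averaging 1 TPM or more in any organ (16694) were fitted with limma 3.58.1 (R 4.3.3) on log2(TPM + 1), so the fold change of low genes is understated. All 18 libraries entered 1 model with a mean per organ (eBayes with trend and robust), with Benjamini-Hochberg adjustment over all genes tested. TPM folds are ratios of means. The script was checked on simulated data. Read numbers were estimated from the steps between low TPM values, 73.7% to 92.3% of which fell within 0.1 of a whole read. Members, gene lists and tests were chosen with earlier results of these data known. Named genes are the members, listed genes of at least 10 TPM in an organ, and the 3 genes most like each member, some of which are not reported here. Alternatives changed the pseudocount, filter, scaling, weights, moderation and samples in the fit, added a replicate block and left out each library.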

Additional observations from a re-analysis of the deposited data

How the results depend on the processing

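Of the 7 counts of called members, 6 stayed within 1.5 times their value under all alternatives tried. The count for blood against bone marrow rose from 4 to 7 of 7 (2 higher and 5 lower in blood) with library weights and in a fit to only those 6 libraries, where fewer samples set the spread; with libraries left out in turn it ranged from 3 to 5. With replicates left out, the other counts ranged from 6 to 7. The comparison of liver and lung with spleen and lymph node kept 5 to 7 members. In the 6 comparisons, called differences turned direction under scaling to T cell genes for blood minus spleen in S100a10 (0.31) and for blood minus lymph node in S100a10 (0.97) and S100a13 (0.46). Among the other organ pairs, that scaling turned the call of S100a4 for bone marrow minus liver (0.25), and differences that no longer passed changed sign for S100a4 and S100a11 in liver minus lung (-0.04 and -0.18), for S100a10 in bone marrow minus liver (0.04) and, with quantile normalization, for S100a10 in spleen minus lung (0.08). That scaling raised the share of calls that were higher in blood from 56.9% to 94.8% against spleen, 43.9% to 96.9% against lymph node, 41.0% to 71.6% against bone marrow, 59.1% to 92.8% against liver and 60.5% to 84.1% against lung, and from 35.7% to 61.6% in liver and lung against spleen and lymph node. Quantile normalization lowered that share to 44.8% against spleen, 44.5% against liver and 47.3% against lung, and removal of abundant RNA classes lowered it to 46.4% against spleen. Counts over all genes rose by over 1.5 times under T cell scaling against spleen (5912 to 9347), lymph node (6249 to 9865) and liver (6580 to 11025), and with library weights against lymph node (to 10167) and bone marrow (5308 to 8930). The S100a13 call for liver and lung was lost without a filter (limma adjusted p = 0.0727), with abundant classes removed (0.0655), with weights (0.116), with plain moderation (0.0606) and in a fit to only those organs (0.0909), and the S100a9 call there with weights (0.162). The S100a9 call against bone marrow was lost without a filter (limma adjusted p = 0.0555), and the S100a10 call against lymph node with plain moderation (0.164). The S100a8 difference from bone marrow passed at a pseudocount of 5 (0.0458). These causes were not tested. Deviations of same-numbered libraries of different organs had a median correlation of 0.007, with 0 of 45 pairs over 0.1, beside -0.002 for libraries of different number. Of 18 libraries, 9 were closest to their own number. The labels do not give the source of the replicates, so whether same-numbered libraries share animals or handling cannot be told from these correlations. With the replicate block, S100a8 passed against bone marrow (limma adjusted p = 0.0457), S100a13 did not pass for liver and lung (0.0556), and no other member call changed in the 6 comparisons.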
